A study of Mus musculus with 4 samples.

Results

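The natriuretic peptide system was examined through 7 genes, namely the hormone genes Nppa, Nppb and Nppc, the processing protease gene Corin and the receptor genes Npr1, Npr2 and Npr3. They were chosen by gene symbol, and every probe set annotated to exactly 1 of these symbols was taken. This gave 9 probe sets for 7 of the 18193 genes measured, 3 of them for Npr3 and 1 for each of the other 6 genes. Total RNA from mouse hearts had been hybridised to 4 Affymetrix mouse expression arrays, 2 labelled Tg-Sirt1 from transgenic mice and 2 labelled NTg from wild type mice. Per the labels, all mice were killed with pentobarbital and the hearts were snap frozen. The sources used here give neither the strain, age and sex of the mice nor the promoter and line of the Sirt1 transgene, which limits what the Tg-Sirt1 hearts can stand for. Values are log2 expression values from RMA, a procedure that corrects background, is meant to equalise the distributions of the arrays and summarises the probes of a set. Levels are therefore compared here between arrays and not between genes. The summed signals of marker lists add different probe sets, so the brightest ones weigh most.

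Nppa encodes atrial natriuretic peptide (ANP) and Nppb encodes brain natriuretic peptide (BNP), both secreted by cardiomyocytes when the heart wall is stretched. In the adult heart Nppa is expressed mostly in the atria, and ventricular expression of both genes is a standard sign of load. Corin is a membrane protease of cardiomyocytes that cuts the ANP precursor into the active hormone. ANP and BNP act through the guanylyl cyclase receptor encoded by Npr1, which raises cGMP, whereas C-type natriuretic peptide from Nppc acts through Npr2. Npr3 encodes a receptor without the cyclase domain that removes all 3 peptides from the circulation.

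The arrays labelled Tg-Sirt1-1 and NTg-1 were near-identical, although the labels assign them to different mice and groups. The SD of their differences over 45037 probe sets was 0.0759 log2 units, against 0.342 to 0.405 for the other 5 pairs of arrays. Whether one of them repeats the other or carries a wrong label was not tested, and every Tg-Sirt1 minus NTg value below holds only as far as the labels do. Sirt1 itself read 7.16 and 7.93 on Tg-Sirt1-1 and Tg-Sirt1-2, against 7.30 and 7.17 on NTg-1 and NTg-2, so it was higher on Tg-Sirt1-2 only, and the library labelled Tg-Sirt1-1 is called by its label throughout. A probe set can miss a transgene made from a cDNA, so this reading need not check the labels. The Gapdh control signal at the 3′ end exceeded that at the 5′ end by 0.19 and 1.34 log2 units on the Tg-Sirt1 arrays and by 0.18 and 0.69 on the NTg arrays, and a larger excess stands for weaker 5′ signal. The 6 cardiomyocyte markers, such as Myh6 and Tnnt2, read 12.24 to 13.93 on all 4 arrays, and the labelled tissue thus had its defining transcripts.

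Among the hormones, Nppa and Nppb were both higher on NTg-2 than on the near-identical pair. On Tg-Sirt1-2 Nppa was higher than the pair, whereas Nppb differed from it by only -0.21. Over all probe sets, the differences between Tg-Sirt1-2 and either array of the pair had an SD of 0.35. Nppa read 11.40 and 11.94 on Tg-Sirt1-1 and Tg-Sirt1-2, against 11.39 and 11.88 on NTg-1 and NTg-2. Each group thus held a low and a high array, and the groups overlapped almost completely. The Nppa mean was 11.67 ± 0.38 in Tg-Sirt1 and 11.64 ± 0.35 in NTg (SD, n = 2 each), a log2 fold change of 0.035 with a 95% confidence interval from -0.63 to 0.70.

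Nppb read 11.76 and 11.55 on the Tg-Sirt1 arrays, against 11.76 and 12.46 on the NTg arrays. NTg-2 stood above the other 3 arrays, Tg-Sirt1-2 was the lowest, and the groups met at the shared value of the near-identical pair. The mean was 11.66 ± 0.15 in Tg-Sirt1 and 12.11 ± 0.49 in NTg (SD, n = 2 each). The log2 fold change of -0.455 was the largest in size among the 7 genes, with a 95% confidence interval from -1.12 to 0.21 and a moderated SE of 0.26 in limma (unadjusted p = 0.14, adjusted p = 0.996). Without NTg-2 it was -0.105 and without NTg-1 it was -0.805, so its size rested on which wild type array was used.

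Nppc, the C-type peptide gene, had a dim probe set, which read 5.42 and 5.73 on the Tg-Sirt1 arrays and 5.23 and 5.73 on the NTg arrays. Tg-Sirt1-2 and NTg-2 shared the highest value. The log2 fold change was 0.095 ± 0.22 (SE). Its difference of 0.19 within the near-identical pair was reached by only 2.96% of all probe sets in that pair, so this probe set also varied more than most between arrays that otherwise agreed.

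**Figure D1:**
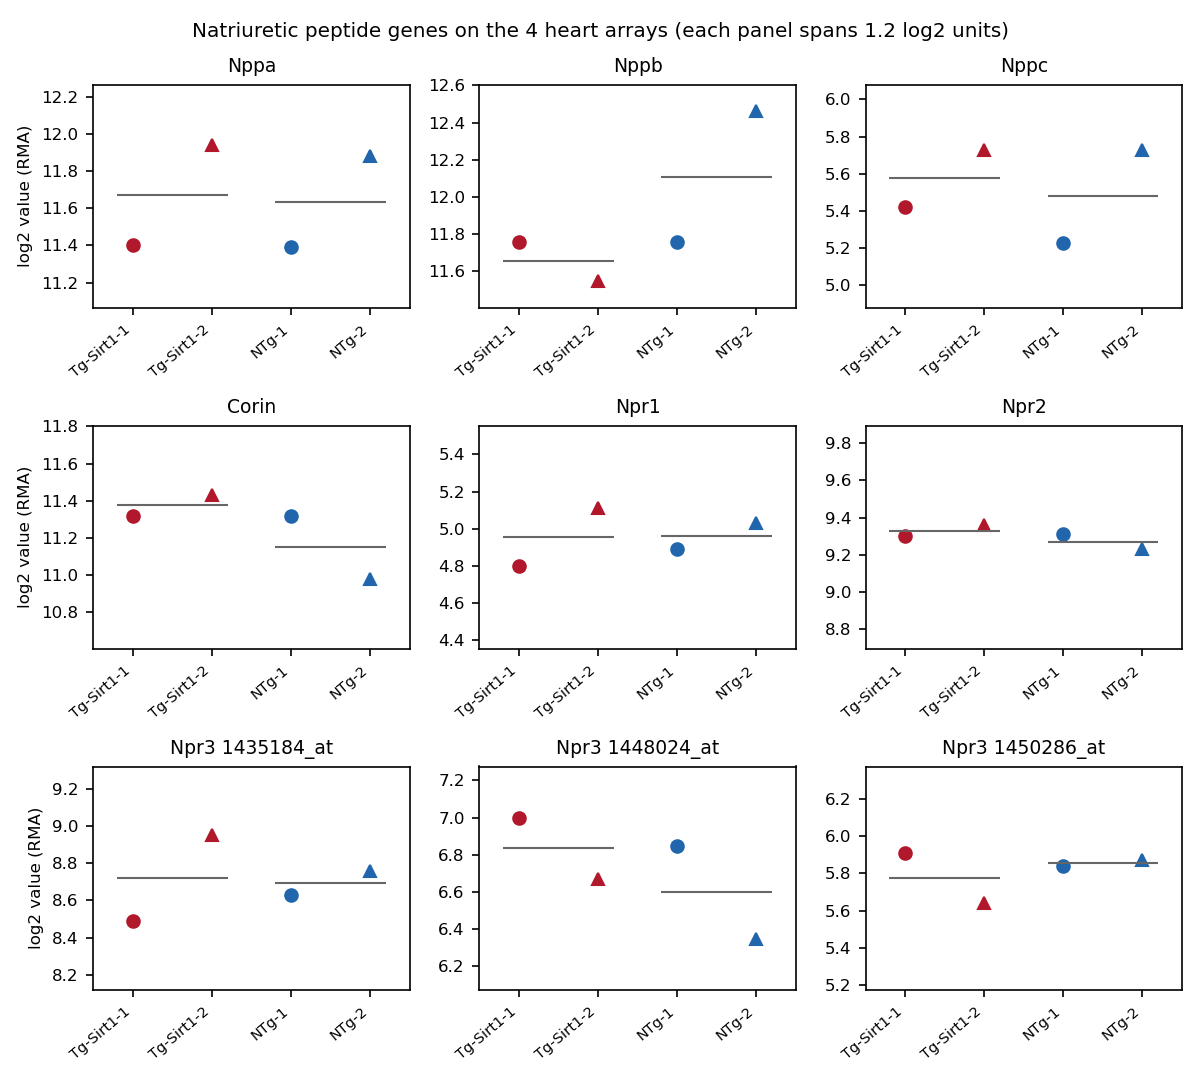
Log2 expression values (vertical axis, RMA scale) of the 9 probe sets on the 4 arrays (horizontal axis). Red points are Tg-Sirt1 arrays and blue points NTg arrays, with circles for replicate 1 and triangles for replicate 2, and grey lines are group means (n = 2). Nppa is high on both triangles, whereas Nppb is highest at 12.46 on NTg-2 and lowest at 11.55 on Tg-Sirt1-2.

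Nppb and Nppa lie next to each other on chromosome 4 in the mouse assembly GRCm38.p6, with no other protein-coding gene between them. The protein-coding genes on either side, 2510039O18Rik and Clcn6, differed from the near-identical pair by -0.235 and -0.635 on NTg-2. On Tg-Sirt1-2 they differed from it by 0.115 and 0.275. Nppa was above the pair on NTg-2 and on Tg-Sirt1-2, and Nppb on NTg-2 only, with a small difference of -0.21 on Tg-Sirt1-2. For this reason the 250 bases upstream of their RefSeq start sites are shown. Both are from GRCm38.p6 on the plus strand, at chr4:148000472-148000721 for Nppa and chr4:147985650-147985899 for Nppb. Capitals mark matches, on either strand, to TGATAA or AGATAA (letters of GATA factor sites), CATTCC (TEAD) and AAGTG (NKX2-5).
Nppa: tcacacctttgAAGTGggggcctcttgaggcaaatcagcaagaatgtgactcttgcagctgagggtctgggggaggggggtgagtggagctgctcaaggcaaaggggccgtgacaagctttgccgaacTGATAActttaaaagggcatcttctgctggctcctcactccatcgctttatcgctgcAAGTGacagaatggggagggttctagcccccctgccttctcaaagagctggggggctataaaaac
Nppb: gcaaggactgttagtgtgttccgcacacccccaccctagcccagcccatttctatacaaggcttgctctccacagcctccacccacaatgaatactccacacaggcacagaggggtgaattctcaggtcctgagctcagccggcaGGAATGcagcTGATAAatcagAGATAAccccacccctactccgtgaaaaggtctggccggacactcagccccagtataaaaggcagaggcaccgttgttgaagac

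Both windows held 1 TGATAA, which starts 122 bases before the Nppa start and 95 before the Nppb start, and 7.94% of the 32851 promoter windows of this length held it on either strand. The Nppb window also held 1 AGATAA (9.99% of windows) and 1 CATTCC (12.6%), and the Nppa window held neither. The Nppa window held 2 AAGTG (40.7% of windows) and the Nppb window 0. Neither window matched TGACTCA (AP-1, 4.46% of windows) or TTCAGCACC (part of the REST site, 0.301%), while a wide form of the SRF site (CC and GG around any 6 bases) was in 67.1% of windows and had 1 match for Nppa and 0 for Nppb. The windows of the other 5 genes held 0 matches to any of these motifs except that wide form, and no motifs searched here overlapped in the 2 printed windows. These are matches of letters and not binding sites.

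Corin, the ANP-activating protease, read 11.32 and 11.43 on the Tg-Sirt1 arrays, against 11.32 and 10.98 on the NTg arrays. It was lowest on NTg-2, the array with the highest Nppb, and the groups met at 11.32. The log2 fold change was 0.225 ± 0.17 (SE) with a 95% confidence interval from -0.20 to 0.65 (limma adjusted p = 0.996), and it was 0.055 without NTg-2 and 0.395 without NTg-1. Over all 45037 probe sets, 24420 were higher on NTg-2 than on the near-identical pair, with a median difference of 0.03. Of the 6 cardiomyocyte markers, 0 were higher there, with a median difference of -0.0925, against -0.34 for Corin. The part of those markers in the Corin value was not tested. Their summed linear signal was 72675 and 66821 arbitrary units on the Tg-Sirt1 arrays and 72584 and 68608 on the NTg arrays. In whole hearts, fewer cells of a type and less RNA per cell cannot be told apart.

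Of the receptors, Npr2 varied least. Npr2, the receptor of the C-type peptide, read 9.30 and 9.36 on the Tg-Sirt1 arrays and 9.31 and 9.23 on the NTg arrays, a span of 0.13 log2 units and the narrowest of the 9 probe sets. Its log2 fold change was 0.06, with a 95% confidence interval from -0.27 to 0.39. Npr1, the receptor of ANP and BNP, read 4.80 and 5.11 on the Tg-Sirt1 arrays and 4.89 and 5.03 on the NTg arrays. Its values lay below the median of all probe set means, 6.25, and whether they are above background is not known here. The log2 fold change was -0.005 ± 0.16 (SE), and its 95% confidence interval ran from -0.42 to 0.41.

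The clearance receptor gene Npr3, which in the adult mouse heart marks endocardium, gave 3 probe sets that did not move alike. The brightest, 1435184_at, read 8.49 and 8.95 on the Tg-Sirt1 arrays and 8.63 and 8.76 on the NTg arrays, with 1 Tg-Sirt1 value below and 1 above both NTg values. Probe set 1448024_at read 7.0 and 6.67 on the Tg-Sirt1 arrays and 6.85 and 6.35 on the NTg arrays, so it was lowest where 1435184_at was second highest. Probe set 1450286_at read 5.91 and 5.64 on the Tg-Sirt1 arrays and 5.84 and 5.87 on the NTg arrays. Their log2 fold changes were 0.025 ± 0.19, 0.235 ± 0.23 and -0.08 ± 0.15 (SE), and all 3 had a limma adjusted p of 0.996. No single direction can therefore be given for Npr3. Among all 45037 probe sets, 24080 were higher on Tg-Sirt1-2 than on the near-identical pair and 24420 on NTg-2. Of the 7 endothelial and endocardial markers, 2, Tek and Nfatc1, were higher on Tg-Sirt1-2 (median difference -0.315) and 1, Cdh5, on NTg-2 (median -0.31). The summed signal of these markers was 4891 and 3809 units on the Tg-Sirt1 arrays and 4902 and 3749 on the NTg arrays. Their part in the Npr3 values was not tested.

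No difference between the labels passed the test for any of the 7 genes. In limma, 0 of the 9 probe sets passed an adjusted p of 0.05 and 0 had an unadjusted p under 0.05, with a background of 0.0% of 45037 probe sets called at the adjusted threshold and 0.0622% (28 probe sets) at the unadjusted one. The Tg-Sirt1 and NTg values did not overlap in 0 of the 9 probe sets, with a background of 21.0% of all probe sets, of which 9.59% were higher and 11.4% lower in Tg-Sirt1. With their brightest probe sets, 5 of the 7 genes had a higher Tg-Sirt1 mean and 2 a lower one, with a median log2 fold change of 0.035, against -0.015 and 45.6% higher over all probe sets. The number higher was 2 of 7 without NTg-1 or without Tg-Sirt1-2 and 6 of 7 without NTg-2 or without Tg-Sirt1-1, and 3 of 7 after a second quantile normalization, so this count depends on single arrays and on the scaling. With 2 arrays per label, the smallest two-sided p of an exact permutation test is 0.333. Because the Tg-Sirt1 group holds a near copy of an NTg array, this comparison had little power, and its wide intervals leave room for changes in either direction. With the mean of the near-identical pair counted once as an NTg array, the log2 fold changes of Nppa, Nppb and Corin were 0.30, -0.56 and 0.28. With that mean counted once as a Tg-Sirt1 array they were -0.21, -0.805 and 0.395, and in both fits 0 of 45037 probe sets passed in limma, with 2480 and 4314 at an unadjusted p under 0.05. Each of these fits has 1 array in a group, which is assumed to vary like the other group, so their lack of calls carries little weight.

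**Figure D2:**
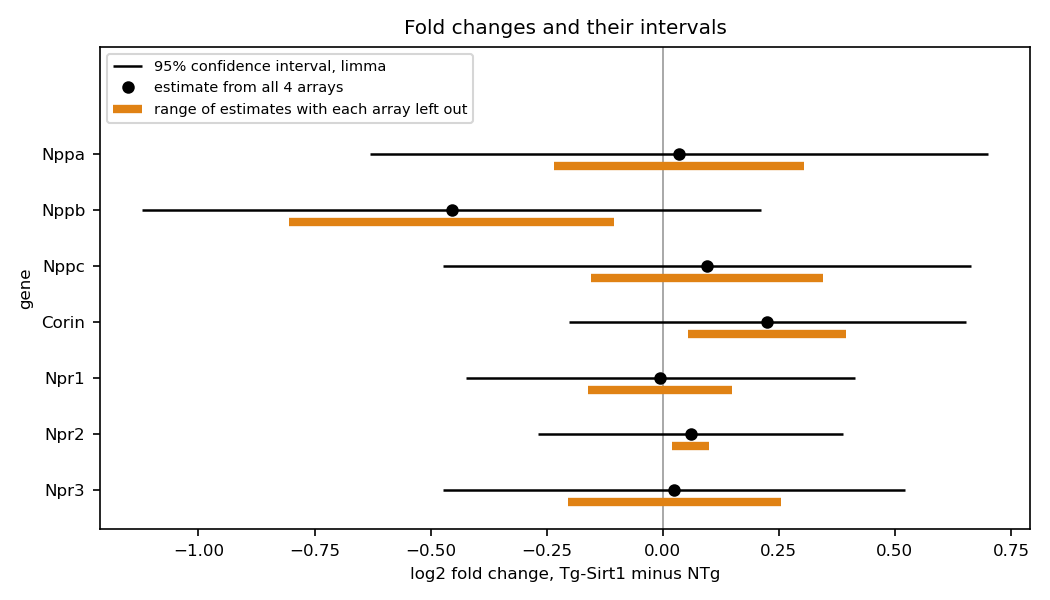
Log2 fold changes of the 7 genes, Tg-Sirt1 minus NTg (horizontal axis), from the brightest probe set of each gene. Black points and lines are the limma estimate and its 95% confidence interval, and orange bars span the estimates with each array left out. Every interval includes 0, and the orange bars of Nppb, Corin and Npr2 lie on one side of 0. For these genes the near-identical pair lies between Tg-Sirt1-2 and NTg-2, so leaving out an array could hardly change the sign.

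Since the pair counts almost as one array, the values fall into 3 levels, those of the pair, of Tg-Sirt1-2 and of NTg-2, which can be described but not tested. Nppa lay above the mean of the pair by 0.545 log2 units on Tg-Sirt1-2 (1.46-fold) and by 0.485 on NTg-2 (1.40-fold). Nppb differed from it by -0.21 on Tg-Sirt1-2 and by 0.70 on NTg-2 (1.62-fold). Between these 2 arrays alone, Tg-Sirt1-2 minus NTg-2, the difference was 0.06 for Nppa and -0.91 for Nppb, or 1.88-fold lower on Tg-Sirt1-2. Nppb was the only 1 of the 9 probe sets at least 0.5 log2 units lower there, with a background of 6.71% of all probe sets.

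Corin had 0.11 on Tg-Sirt1-2 and -0.34 on NTg-2 against the pair, and Nppc 0.405 on both. At least 0.5 log2 units above the pair on Tg-Sirt1-2 lay 1 of the 9 probe sets, that of Nppa, with a background of 3.21% of all probe sets, and 0 lay that far below it, with a background of 6.46%. On NTg-2, 1 lay that far above the pair, that of Nppb, with a background of 3.74%, and 1 that far below it, Npr3 1448024_at at -0.575, with a background of 7.98%. Both sets of differences share the pair as their base. Within the pair, Tg-Sirt1-1 minus NTg-1 was 0.01 for Nppa, 0.00 for Nppb and 0.00 for Corin, and its widest value among the 9 probe sets was the 0.19 of Nppc.

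**Figure D3:**
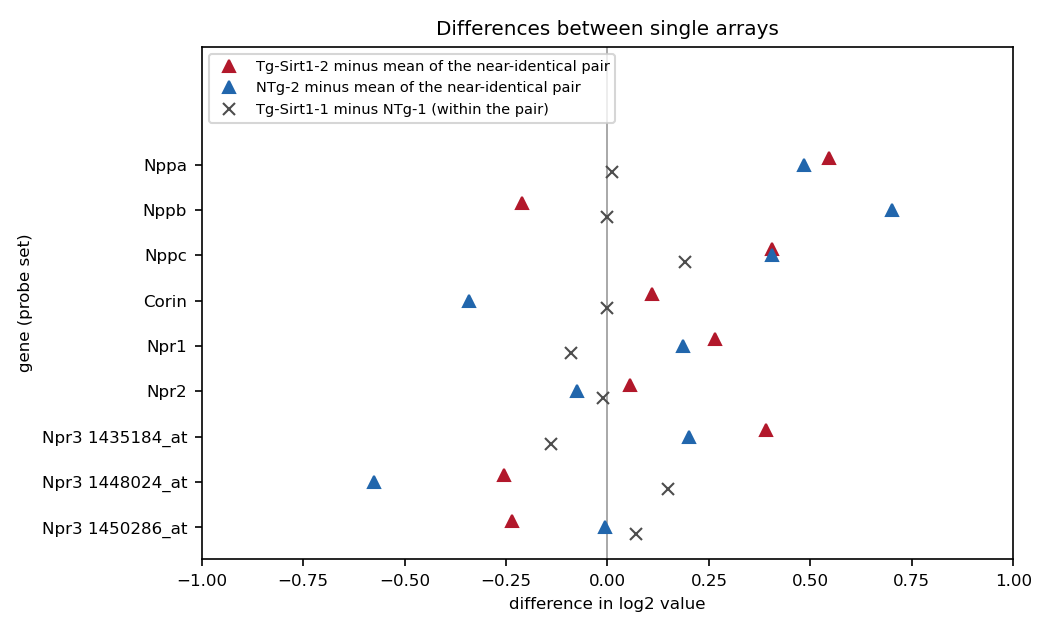
Differences in log2 value (horizontal axis) for the 9 probe sets (vertical axis). Red triangles are Tg-Sirt1-2 and blue triangles NTg-2, each minus the mean of the near-identical pair, and crosses are Tg-Sirt1-1 minus NTg-1. Nppa has both triangles near 0.5, while those of Nppb lie at -0.21 and 0.70.

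The pattern of Nppa was matched most closely by Cyp2c54, a cytochrome P450 gene, then by Myl4, the atrial essential myosin light chain, and by 4933407E14Rik. Likeness was the root mean square difference of the values centred on each gene's mean over the 4 arrays, and it was 0.010, 0.013 and 0.018 log2 units for these 3 among 18193 genes, while 34 genes lay within 0.05. Myl4 read 10.56 and 11.07 on the Tg-Sirt1 arrays and 10.55 and 11.02 on the NTg arrays, so it stepped up on the same 2 arrays as Nppa and by almost the same amount. With the pair near 1 value, this likeness rests on little more than 3 levels.

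Of the 6 atrial markers, Myl4, Myl7 and Sln were higher on Tg-Sirt1-2 than on the pair, and 4, these and Tbx5, were higher on NTg-2. Over all 45037 probe sets, 24080 were higher on Tg-Sirt1-2 and 24420 on NTg-2. Myl7, the atrial regulatory light chain, read 10.91 and 11.78 on the Tg-Sirt1 arrays and 10.89 and 11.09 on the NTg arrays. Sln, the calcium pump inhibitor sarcolipin of atrial muscle, read 10.60 and 11.36 on the Tg-Sirt1 arrays and 10.60 and 10.95 on the NTg arrays. The other 3 were not higher on Tg-Sirt1-2. Tbx5 was lowest there at 7.19, and Bmp10 was dim at 5.52 to 5.73. Dkk3 read 8.55 on Tg-Sirt1-2, against 8.68 on Tg-Sirt1-1 and 8.71 on NTg-1. On NTg-2, Tbx5 read 8.03, against 7.97 and 8.03 on the pair.

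The summed linear signal of the 6 atrial markers rests mostly on Myl7, Myl4 and Sln, the brightest of them. It was 5700 and 8862 arbitrary units on the Tg-Sirt1 arrays and 5680 and 6919 on the NTg arrays, and no marker can read 0 after RMA. Its part in the Nppa values was not tested, nor was that of the 3′ to 5′ control signal, which was also highest on Tg-Sirt1-2 and second highest on NTg-2.

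**Figure D4:**
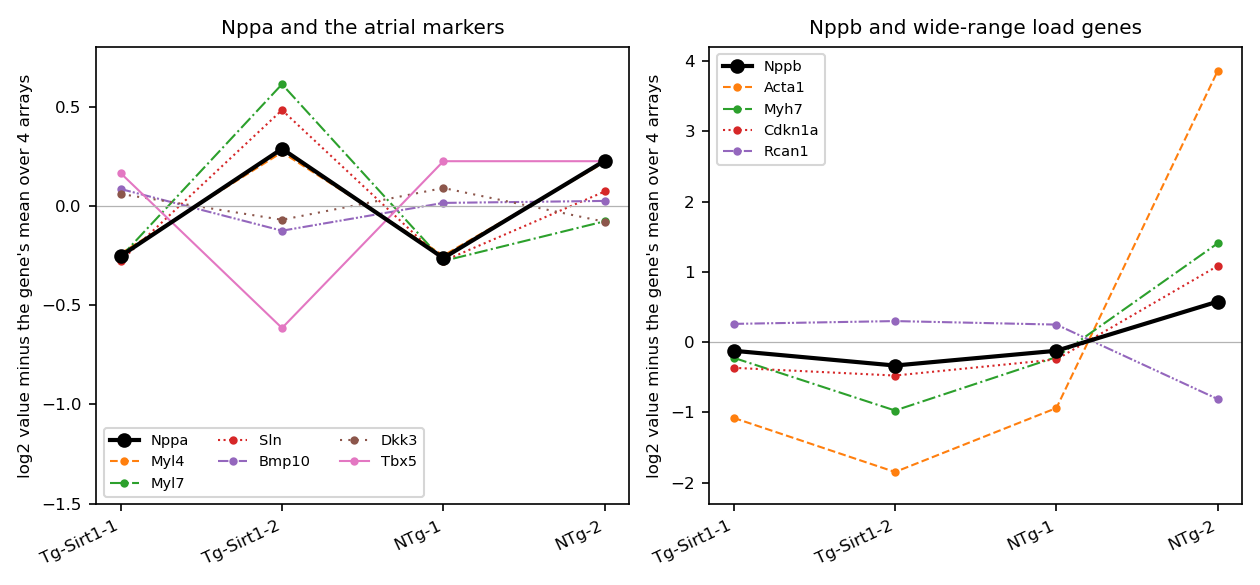
Log2 values minus each gene's mean over the 4 arrays (vertical axis) on the 4 arrays (horizontal axis), with Nppa and the 6 atrial markers on the left and Nppb with the load-responsive genes that span at least 1 log2 unit on the right. Nppa and Myl4 nearly coincide, and Nppb follows Acta1, Myh7 and Cdkn1a to its highest value on NTg-2 on a smaller scale.

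The pattern of Nppb was matched most closely by C430042M11Rik, Ankhd1, an ankyrin repeat gene, and Ubqlnl, a ubiquilin-like gene, at 0.019, 0.030 and 0.043 log2 units, and only 6 genes lay within 0.05. For Nppc the closest were Klra8, Bbs10 and Kcns1 at 0.012, 0.019 and 0.022, and 37 genes lay within 0.05. Of all 45037 probe sets, 24420 were higher on NTg-2 than on the pair (median difference 0.03) and 24080 on Tg-Sirt1-2 (median 0.02). Among 11 measured load-responsive genes, which include Nppa and Nppb, 8 were higher on NTg-2 (median difference 0.465) and 5 on Tg-Sirt1-2 (median -0.165). Between the labels, 4 had a higher and 7 a lower Tg-Sirt1 mean, with a median log2 fold change of -0.105, and 0 passed in limma. The number higher was 2 without NTg-1 (median -0.255), 3 without Tg-Sirt1-2 (median -0.225) and 2 after a second quantile normalization. It was 5 without NTg-2 (median -0.105), and 4 without Tg-Sirt1-1 (median -0.135) or after centring on medians (median -0.07). Skeletal alpha-actin, Acta1, read 7.23 and 6.46 on the Tg-Sirt1 arrays and 7.37 and 12.17 on the NTg arrays. The slow myosin heavy chain gene Myh7 read 11.64 and 10.89 on the Tg-Sirt1 arrays and 11.65 and 13.27 on the NTg arrays. Both thus shared with Nppb the order of NTg-2 highest and Tg-Sirt1-2 lowest, as did the cell cycle inhibitor gene Cdkn1a, at 8.52 and 8.41 on the Tg-Sirt1 arrays and 8.64 and 9.97 on the NTg arrays. Rcan1, a target and inhibitor of calcineurin, went the other way, with 10.40 and 10.44 on the Tg-Sirt1 arrays and 10.39 and 9.33 on the NTg arrays. On NTg-2 the 5 fibroblast markers, such as Tcf21 and Col1a1, were also all lower than on the pair (median difference -0.97), with a summed signal of 16088 and 13084 units on the Tg-Sirt1 arrays and 16104 and 9542 on the NTg arrays, and of 5 ventricular markers 1, Myh7, was higher there (median -0.025). Of the 5 smooth muscle and pericyte markers 0 were higher on NTg-2 (median -0.13), with a summed signal of 17586 and 14807 units on the Tg-Sirt1 arrays and 17536 and 11060 on the NTg arrays, and of 4 adipocyte markers 1 was higher (median -0.555), with 402 and 222 units on the Tg-Sirt1 arrays and 386 and 188 on the NTg arrays. The 4 skeletal muscle markers, all dim, were all higher on NTg-2 (median 0.16). Their summed signal was 173 and 171 units on the Tg-Sirt1 arrays and 179 and 207 on the NTg arrays. Of 4 macrophage markers 2 were higher on NTg-2 (median -0.13), and of 3 lung markers 2 were (median 0.065). The part of these cell types in the Nppb value was not tested.

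Downstream of the receptors, 12 genes of cGMP synthesis and action were measured, and 0 passed in limma at the background given above. The Tg-Sirt1 mean was higher for 9 and lower for 3, with a median log2 fold change of 0.16, and without Tg-Sirt1-2 it was higher for 4 with a median of -0.0075. The soluble guanylyl cyclase subunit genes Gucy1a1 and Gucy1b1 had log2 fold changes of 0.17 each, the cGMP-dependent kinase gene Prkg1 0.09 and the cGMP phosphodiesterase gene Pde5a 0.19. The 3 genes with a lower Tg-Sirt1 mean were the phosphodiesterase genes Pde2a (-0.255) and Pde3a (-0.10) and the kinase gene Prkg2 (-0.075). Pde2a, whose enzyme is stimulated by cGMP, read 10.34 and 10.20 on the Tg-Sirt1 arrays and 10.35 and 10.70 on the NTg arrays. Its groups did not overlap, by 0.01 within the near-identical pair. Of the 12 genes, 2, Gucy1b1 and Pde1c, had both Tg-Sirt1 values above both NTg values and 1, Pde2a, had both below. Over all probe sets these shares were 9.59% and 11.4%. Gucy1b1 and Pde1c were also close within the near-identical pair, at 8.19 and 10.14 on Tg-Sirt1-1 against 8.15 and 10.12 on NTg-1. Pde1c, a phosphodiesterase activated by calmodulin, had the widest span of this list, reading 10.14 and 10.31 on the Tg-Sirt1 arrays and 10.12 and 8.66 on the NTg arrays. It was low on NTg-2, and its log2 fold change was 0.835 ± 0.48 (SE, limma unadjusted p = 0.139).

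Of 5 measured genes of processing and clearance, 1 had a higher and 4 a lower Tg-Sirt1 mean (median -0.06), and 0 passed. A higher mean was found for 2 without NTg-2, without Tg-Sirt1-2 or after centring on medians, and for 3 without Tg-Sirt1-1. Ide, the insulin-degrading enzyme, which also cleaves ANP, read 10.09 and 8.94 on the Tg-Sirt1 arrays and 10.10 and 10.03 on the NTg arrays, and was low on Tg-Sirt1-2 alone. The neutral endopeptidase gene Mme, which degrades natriuretic peptides, had a log2 fold change of -0.03, the proprotein convertase gene Furin one of -0.07 and Pcsk6, the convertase that activates corin, one of 0.185. Of 13 cardiac transcription factors that act on these promoters, 9 had a higher and 4 a lower Tg-Sirt1 mean (median 0.025), but 4 of 13 were higher without NTg-2 or after a second quantile normalization, and 0 passed. Gata4 read 9.91 and 9.39 on the Tg-Sirt1 arrays and 9.95 and 9.31 on the NTg arrays, so it was low on both of the arrays where Nppa was high. This was not particular to Gata4, since Gata6, Nkx2-5, Tead1, Mef2c and Mef2d were also lower on both than on the pair. Myocd, Rest and, by very little, Nfatc4 were higher on both than the mean of the pair. Of the 13 factors, 6 were higher on Tg-Sirt1-2 and 4 on NTg-2, against 24080 and 24420 of all 45037 probe sets. The 3′ to 5′ control signal was highest on these same arrays, and its part was not tested.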

How the data were processed

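Total RNA of mouse hearts was measured on 4 arrays, 2 per label. The authors deposited log2 values with 2 decimals, and per the submitters' processing notes RMA and Affymetrix Expression Console were used, with no versions given. Scan dates and detection calls were not used here. Precision is limited by the small number of arrays.

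Of 45101 probe sets, 64 controls were left out. Platform annotation gave 34945 of the remaining 45037 probe sets 1 symbol, 932 several and 9160 none, and 0 probe sets with several symbols included one of the 7 genes. The probe set of highest mean represented a gene. Limma 3.58.1 in R 4.3.3 (lmFit and eBayes) compared Tg-Sirt1 with NTg over all 45037 probe sets without covariates, with two-sided p-values adjusted by the Benjamini-Hochberg method and a threshold of 0.05. The prior added 3.10 to 2 residual degrees of freedom. SE is the moderated standard error.

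Lists were described by counts and medians. Genes named as alike were the 3 nearest for each gene spanning at least 0.5 log2 units, and list genes spanning at least 1 log2 unit were named. Other list and marker genes are named as examples, chosen after their values were seen. The genes, lists, motifs and alternatives were chosen with earlier results of these data known. Promoter sequences came from RefSeq, GRCm38.p6, in which all 7 genes matched by symbol. A filter on dim probe sets (mean over the 4 arrays above the median of such means) passed 6 of the 9 probe sets and 5 of the 7 genes, leaving out Nppc and Npr1.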

Additional observations from a re-analysis of the deposited data

How the results depend on the processing

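In limma, 0 probe sets passed under each of the 12 alternatives for that count, with 0 to 4314 at an unadjusted p under 0.05. In 6 of these 12 a group has 1 array, which is assumed to vary like the other group, so their counts of 0 do not speak for stability. No fold change of the 7 genes passed (lowest adjusted p 0.508). Of 89 alternative fold changes, 72 kept their direction and 17 took the other one. The fold changes of Nppb (-0.805 to -0.105) and Corin (0.055 to 0.395) kept their sign under all of their alternatives. For both genes the arrays of the near-identical pair share a value that lies between those of Tg-Sirt1-2 and NTg-2. Leaving out an array or averaging the pair could therefore not change these signs, which do not speak for stability. With each array left out, Nppa ran from -0.235 to 0.305, Nppc from -0.155 to 0.345, Npr1 from -0.16 to 0.15, Npr2 from 0.02 to 0.10 and Npr3 from -0.205 to 0.255. With the near-identical pair averaged as an NTg array, Npr1 was 0.17, and with it averaged as a Tg-Sirt1 array, Nppa was -0.21, Nppc -0.20 and Npr3 -0.005. After a second quantile normalization, Nppa was -0.034, Npr1 0.04, Npr2 -0.03 and Npr3 -0.054. After centring on medians Npr1 was 0.03. Both steps would leave arrays of equal distribution unchanged, so the deposited probe set values were not fully equalised between arrays. The cause of these changes of sign was not tested. Replicate numbers do not pair the mice in the labels, and same-numbered arrays deviated together with r = 0.29, a value to which the near-identical pair contributes. With the replicate block, 0 probe sets passed and the fold change of Nppb was -0.455 (limma adjusted p = 0.931). The dim filter gives no value for Nppc and Npr1. Whether the probe sets of Nppc and Npr1 are above background is not known, since detection calls were not used.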
